A study of Capitella teleta with 10 samples.

Results

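Among 46409 regions of accessible chromatin in the annelid Capitella teleta, 69 had a signal that was higher at each of 5 successive stages than at the stage before, by a moderate amount each time. They were selected on the measured values. In the deposited table of normalised signal, the mean of the 2 libraries of each stage was taken in the order 64-cell embryo, gastrula, stage 4tt larva, stage 5 larva and stage 8 larva, and a consensus peak was kept where its stage 8 mean was 100 or more and each of the 4 step ratios (a stage mean divided by the mean of the stage before) was at least 1.1 and under 1.5. The rise itself is therefore a description of how the peaks were found, and it carries no test.

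ATAC-seq uses a transposase that cuts and tags DNA where nucleosomes leave it exposed, so that promoters and enhancers in use appear as peaks of reads. In animal embryos such regions open and close as the genome is first transcribed and as cell types form, and a peak may gain signal abruptly at a single stage or by degrees over many. In whole animals a peak that gains signal may be open in more of the cells or open more fully in each of them, and bulk libraries do not separate the one from the other.

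Each stage had 2 libraries of pooled whole animals, with no treatment or genotype compared: embryos of 64 cells, gastrulae, and larvae of stages 4tt, 5 and 8, pooled from about 500, 200, 120, 90 and 50 animals per library in this order to give about 50000 cells. Capitella teleta is a marine worm whose larva does not feed and lives on yolk. The growth protocol in the labels names another annelid, Owenia fusiformis, but organism label, titles and scaffold names all give Capitella teleta. The 6 libraries up to stage 4tt were sequenced at Oxford and the 4 of stages 5 and 8 at Novogene, so that stage and sequencing batch cannot be told apart at the step from stage 4tt to stage 5.

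The rule narrowed the set in stages. Of the 46409 consensus peaks, 38273 had a stage 8 mean of 100 or more, and 867 of these were higher at every stage than at the stage before by any amount. A ratio of at least 1.1 at all 4 steps left 176 peaks, and 107 of these were set aside because a step reached 1.5 or more. The other 69 are the peaks described here. For comparison, the mirrored rule (a 64-cell mean of 100 or more and a fall by the same factors at every step) gave 66 peaks, and 134 peaks with a stage 8 mean of 100 or more changed by under 1.1 times at every step.

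The 69 peaks spanned a wide range of signal and were not confined to weak sites. The median of their stage means was 490 in 64-cell embryos (50.2 to 3417 over the peaks), 614 in gastrulae, 715 in stage 4tt larvae, 851 in stage 5 larvae and 1096 in stage 8 larvae (134 to 8146). The median step ratio was 1.24 at the first step (64-cell to gastrula), 1.22 at the second, 1.21 at the step between the batches (stage 4tt to stage 5) and 1.21 at the last. Added up, the signal of the median peak was 2.33 times as high at stage 8 as at the 64-cell stage, with a range from 1.63 to 3.25. The signal more than doubled in 53 of the 69 and at least tripled in 1. The bounds of the rule keep the steps of a peak close to each other, and within them the largest step ratio was 1.18 times the smallest in the median peak and under 1.1 times the smallest in 8 peaks. The largest step was the first in 22 peaks, the second in 11, the batch step in 17 and the last in 19. On the log2 scale, a median of 50.7% of the rise (24.0% to 75.3%) came before stage 4tt, within a single batch, and a median of 23.7% (9.43% to 42.6%) came at the batch step.

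**Figure D1:**
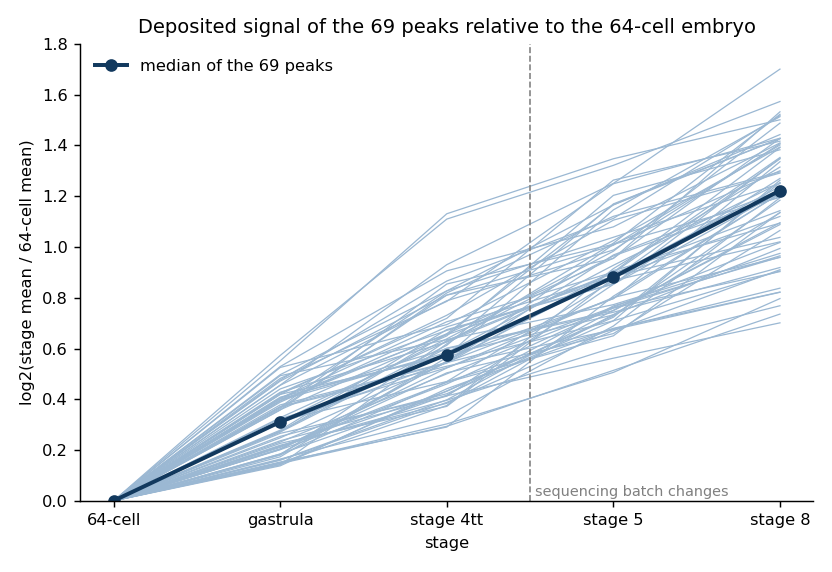
Stage mean of each of the 69 peaks relative to its 64-cell mean, as log2 (vertical axis), at the 5 stages (horizontal axis). Thin lines are single peaks, the thick line is their median and the dashed line marks the change of sequencing batch. By stage 8 the ratios to the 64-cell mean lay between 1.63 and 3.25, and the lines fan out without a stage at which they all turn.

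The scale of the values matters most at the batch step. As deposited, the median consensus peak also had a ratio of 1.18 from stage 4tt to stage 5, against 0.924, 1.05 and 0.997 at the other steps in order. The rule asked for ratios of at least 1.1, so all 69 were bound to lie above that median peak at the first, second and last steps. At the step from stage 4tt to stage 5, where the median of 1.18 lies inside the bounds of the rule, 42 of 69 were above it. These counts describe the choice and add no support. After TMM scaling (a trimmed mean of ratios between libraries), which brought the median ratio of all peaks at that step to 1.03, the median ratio of the 69 there was 1.06 and 14 of them were lower at stage 5 than at stage 4tt. TMM moves nearly all ratios of a step by a common factor, so that these 14 were the ones with the smallest deposited ratios at that step. At the other 3 steps that factor was too small to take a ratio of 1.1 below 1, and the median ratios were 1.35, 1.16 and 1.19. After quantile normalisation, which gives every library the same distribution of values, 11 were lower at the batch step and 2 at the step from 64-cell to gastrula, and the median ratios were 1.31, 1.13, 1.17 and 1.25. A rise at all 4 steps was thus seen in 55 of the 69 after TMM and in 56 after quantile normalisation, and the remaining 14 and 13 did not rise at every step on those scales.

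**Figure D2:**
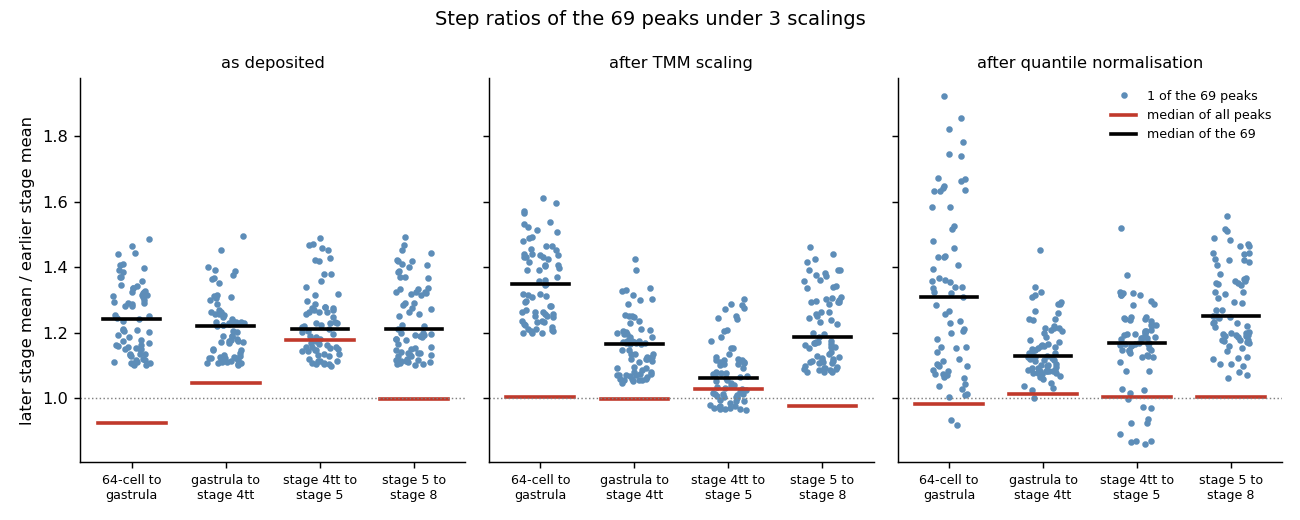
Ratio of a stage mean to that of the stage before (vertical axis) for each of the 69 peaks (points) at the 4 steps, on the deposited scale, after TMM scaling and after quantile normalisation. Black lines are the median of the 69 and red lines the median of all consensus peaks; at stage 4tt to stage 5 the red line stands at 1.18 as deposited and at 1.03 after TMM, and 14 points fall below 1 after TMM.

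The same values can be given as a place within each library, which needs no scaling between libraries. The rule used these libraries, so a gain in rank is a description and adds no support. Ranked among all 46409 peaks of a library and averaged over the 2 libraries of a stage, the median of the 69 stood at 62.2% of the way from the weakest to the strongest peak in 64-cell embryos, 70.9% in gastrulae, 74.2% in stage 4tt larvae, 78.1% in stage 5 larvae and 84.8% in stage 8 larvae. All 69 ranked higher at stage 8 than at the 64-cell stage, by a median of 16.7 percentage points. By step, the rank was higher in 67, 69, 58 and 69 of the 69 peaks, and in 56 at all 4 steps.

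Replicate spread was set against the size of the steps. The higher of the 2 libraries of a stage exceeded the lower by a median of 1.11 times in 64-cell embryos and in gastrulae, and 1.06, 1.07 and 1.06 times in larvae of stages 4tt, 5 and 8, which is less than the median step ratio. Both libraries of a stage were above both libraries of the stage before in 50 of 69 peaks at the first step (34.0% of all consensus peaks), 57 at the second (38.6%), 65 at the batch step (52.8%) and 67 at the last (36.4%). This held at all 4 steps in 42 of the 69, against 0.463% of all peaks. The rule used these same libraries, so nothing is read from that excess. The widest gap between replicates of a peak fell at the 64-cell stage in 24 peaks and in the gastrula in 26, and at stage 8 in 3. This was not counted over all peaks, but their median gap was also larger in the early stages. The first step was the one that replicates separated least well, in the 69 and over all consensus peaks alike.

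Under limma on log2(value + 1), fitted over all 46409 peaks with Benjamini-Hochberg adjustment over all of them and an adjusted p under 0.05, single steps were called in fewer of the 69. The number called higher was 33 at the first step (27.1% of all peaks were called higher), 26 at the second (21.7%), 35 at the batch step (39.8%) and 28 at the last (15.3%), and none was called lower at any of them. Across the first 2 steps together, from the 64-cell embryo to stage 4tt, 63 of the 69 were called higher (26.8% of all peaks). These contrasts chose the peaks, and the counts describe only how many single rises stand clear of the replicate spread. Leaving out a library of a step left 1 library in its stage. At the second, batch and last steps no such fit called more of the 69, and each called fewer of all peaks. The median log2 change of the 69 at the second step was 0.2757 with all libraries. It was 0.3243 and 0.2105 without gastrula replicate 1 or 2, and 0.3001 and 0.2341 without stage 4tt replicate 1 or 2. At the batch step it was 0.2793 with all libraries. There it was 0.2682 and 0.2742 without stage 4tt replicate 1 or 2, and 0.2742 and 0.3084 without stage 5 replicate 1 or 2. At the last step it was 0.279 with all libraries. There it was 0.3256 and 0.2818 without stage 5 replicate 1 or 2, and 0.3145 and 0.2976 without stage 8 replicate 1 or 2. After TMM scaling, with all libraries, 2 of the 69 were called higher at the batch step, against 14166 of all 46409 peaks. At the first step 54 were, against 15115 of all peaks.

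A replicate that played no part in the choice gives a reading that the rule did not fix. When the whole rule was applied to the replicate 1 libraries alone, it chose 69 peaks, 26 of them among the 69 described here. In the replicate 2 libraries the values of these peaks were higher than at the stage before in 62.3%, 97.1%, 94.2% and 97.1% at the 4 steps in order, against 39.9%, 61.6%, 61.0% and 55.5% of the 38144 peaks with a replicate 1 stage 8 value of 100 or more. They rose at all 4 steps in 39 of 69, or 56.5%, against 2.25% of those 38144. The median ratio in replicate 2 was 1.04 at the first step, where it had been 1.27 in replicate 1, and 1.31, 1.18 and 1.28 at the others.

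The reverse choice differed by step. Applied to the replicate 2 libraries alone, the rule chose 73 peaks, 22 of them among the 69, and in replicate 1 these were higher in 78.1%, 79.5%, 87.7% and 89.0% at the 4 steps, against 45.1%, 58.3%, 60.0% and 49.6% of the 38361 peaks with a replicate 2 stage 8 value of 100 or more. The median ratio in replicate 1 was 1.27, 1.14, 1.29 and 1.19 at these steps, so that the low first step of the other choice was not seen again. They rose at all 4 steps in 34 of 73, or 46.6%, against 2.29% of those 38361. For both choices, a rise at every step was thus seen in the other replicate in a larger share than among all peaks. Most of the chosen peaks were not among the 69, so this is not a reading of the 69 themselves. Both replicates also went into the consensus peaks and the normalisation, so the other replicate was not fully independent of the choice. The whole rule was met in each replicate by 8 peaks. They were 11.6% of those chosen in replicate 1, against 0.189% of the 38144, and 11.0% of those chosen in replicate 2, against 0.180% of the 38361. The replicates of a stage share its batch, so that batch and stage cannot be told apart by this reading either.

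**Figure D3:**
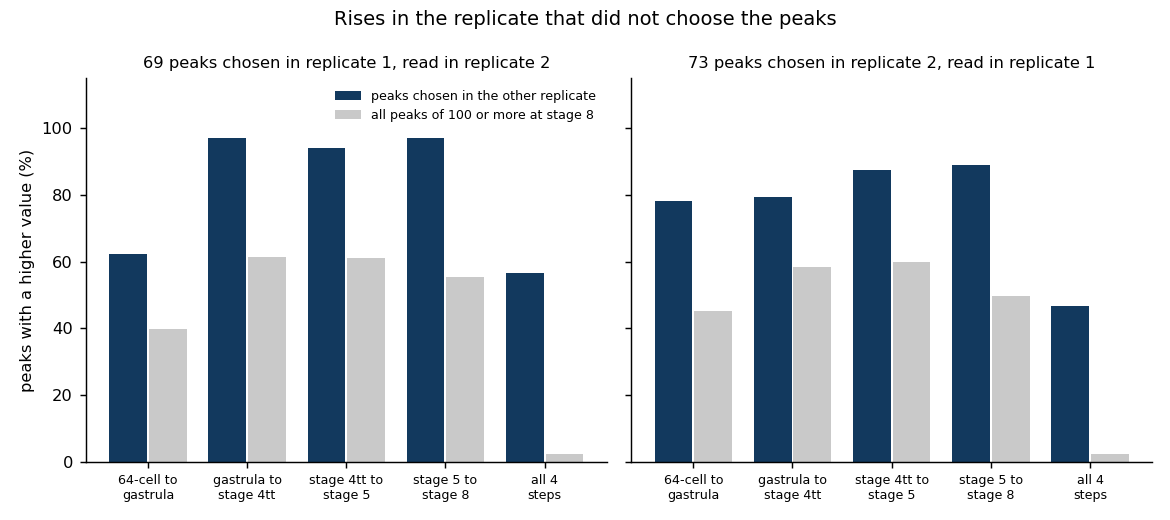
Percentage of peaks with a higher value than at the stage before (vertical axis) at each step and at all 4, read in the replicate that did not choose them. Dark bars are the 69 peaks chosen in replicate 1 (left) and the 73 chosen in replicate 2 (right), grey bars all peaks with a stage 8 value of 100 or more in the choosing replicate; at all 4 steps the dark bars stand at 56.5% and 46.6% and the grey ones at 2.25% and 2.29%.

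The 8 peaks that met the rule in each replicate all belong to the 69 and were singled out after their values were seen. The strongest was CTEL_peak_41817, on scaffold 80 from 261316 to 264441, which at 3126 bp was also the widest of the 69. Its signal was 2798 and 3261 in 64-cell embryos, 4139.6 and 3820.1 in gastrulae, 5451 and 5298 in stage 4tt larvae, 6902 and 6693 in stage 5 larvae, and 8168 and 8125 in stage 8 larvae. No library of a stage overlapped the stage before, and the stage 8 mean was 2.69 times the 64-cell mean.

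CTEL_peak_15120, on scaffold 23 from 387459 to 388461, had, in the same order of stages, values of 1967 and 2198, then 2839 and 2765, 3221 and 3206, 4001 and 3756, and 4710.1 and 4491. CTEL_peak_33827, on scaffold 55 from 577938 to 580221, had 1576 and 1496, then 2076 and 1878, 2642 and 2747, 3126 and 3048, and 4177 and 3943. In both peaks the 5 pairs of libraries were fully separated, and the gap between replicates was smaller than every step. CTEL_peak_6063, on scaffold 139 from 140145 to 141764, had 1324 and 1396, then 1814 and 1698, 2431 and 2486, 2712 and 2769.6, and 3401 and 3298. CTEL_peak_40995, on scaffold 774 from 77315 to 78363, had 1286 and 1388, then 1821 and 1953, 2454 and 2290.4, 2751 and 2741, and 3195 and 3165. In both, each of the first 2 step ratios was larger than each of the last 2.

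CTEL_peak_18955, on scaffold 28 from 154746 to 156196, was the one with the closest replicates of all 69, which differed by at most 1.04 times. Its values were 935 and 899, then 1044 and 1025, 1374 and 1339, 1627 and 1559, and 2365 and 2268, so that its largest step was the last, with a ratio of 1.45. CTEL_peak_29878, on scaffold 46 from 465644 to 466077, and CTEL_peak_31128, on scaffold 49 from 229208 to 229605, were the weak and narrow ones of the 8. The first had 333 and 419.7, then 448 and 497, 574 and 589, 791 and 678, and 931 and 797. The second had 158 and 165, then 227 and 238, 329.6 and 274, 376 and 305, and 421 and 435, and its stage 4tt and stage 5 libraries overlapped.

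**Figure D4:**
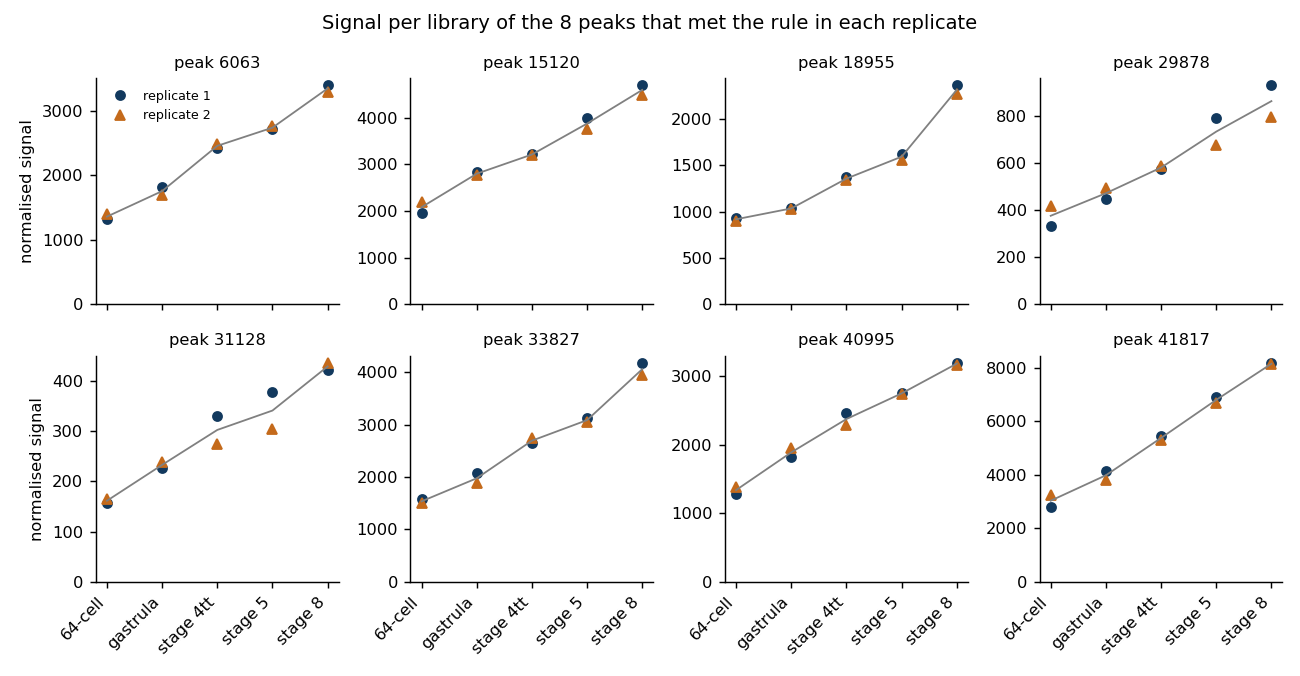
Normalised signal per library (vertical axis, starting at 0) at the 5 stages for the 8 peaks that met the rule in each replicate; circles are replicate 1, triangles replicate 2 and lines the stage means. In CTEL_peak_41817 the values go from 2798 and 3261 to 8168 and 8125, and the replicates part by up to 1.26 times in CTEL_peak_29878 and 1.24 times in CTEL_peak_31128.

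Besides CTEL_peak_41817, the highest stage 8 means belonged to 4 peaks. CTEL_peak_286, on scaffold 1 from 1404061 to 1405355, had 2616 and 2342, then 3576 and 3689.6, 5211 and 5647, 6495 and 6123, and 7049 and 6986, again from the 64-cell embryos to the stage 8 larvae. It rose early, with ratios of 1.47 and 1.49 at the first 2 steps and 1.16 and 1.11 at the last 2. CTEL_peak_39090, on scaffold 702 from 89417 to 90780, had 1732 and 1893, then 2489 and 2481, 2791 and 3472, 3598 and 3596, and 4724 and 4891. CTEL_peak_21517, on scaffold 312 from 163392 to 165630, had 3240.2 and 3594, then 4156 and 4059.7, 4286 and 4818, 5070.5 and 5018, and 5507 and 5604. This was the highest 64-cell mean of the 69, 3417, and the smallest rise, 1.63 times. CTEL_peak_45707, on scaffold 96 from 110266 to 111872, had 2751 and 2609.8, then 3511 and 3565, 3995 and 4126, 4729 and 4241, and 5299 and 4838.

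The signal of a peak grows with its width, so levels between peaks were also set per 100 bp. By this measure CTEL_peak_286 came first of the 69 at stage 8, with 542 per 100 bp, followed by CTEL_peak_15120 with 459 and CTEL_peak_39090 with 352, while the wide CTEL_peak_41817 came in place 8 with 261. The median of the 69 was 56.7 per 100 bp at the 64-cell stage and 112 at stage 8. Over all consensus peaks it was 44.8 and 49.2, over the 66 falling peaks 75.3 and 33.7, and over the 134 that changed little 70.2 and 67.9. The rising peaks thus began between the median of all peaks and that of the falling and the little-changing peaks, and ended above all 3 groups, a direction that the rule fixes.

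The 5 largest overall rises were in peaks of very different signal, with stage 8 means from 226 to 3667. CTEL_peak_45113, on scaffold 93 from 157283 to 158437, was the only one of the 69 that at least tripled, at 3.25 times, with 254 and 313 in 64-cell embryos, 466 and 311 in gastrulae, and then 508 and 571, 652 and 696, and 869.8 and 971 in the larvae. The lower of its gastrula libraries lay below the higher 64-cell library. CTEL_peak_24299, on scaffold 3572 from 7008 to 7534, had a ratio of 2.98 and the widest gap between replicates of all 69. Its gastrula values were 151 and 75.1, so that the second gastrula library was below both 64-cell libraries (76.4 and 75.6), and it then had 163 and 165, 175 and 206, and 217 and 236.

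The other large rises were better separated, with an exception. CTEL_peak_15770 (scaffold 238, 64119 to 65060) went from 789.8 and 827 at the 64-cell stage to 2426 and 2251 at stage 8, or 2.89 times, and CTEL_peak_23884 (scaffold 35, 487477 to 489059) from 1232 and 1329 to 3716 and 3618, or 2.86 times. Both had libraries that did not overlap at any step. CTEL_peak_40303 (scaffold 747, 36560 to 37736) went from 307 and 352 to 904 and 989, or 2.87 times, with gastrula values of 417 and 309.6, the lower of which lay below the higher 64-cell library.

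The smallest overall rises, apart from CTEL_peak_21517, were 1.67 times in CTEL_peak_40726 (scaffold 763, 63849 to 65015), from 761 and 841 to 1236 and 1433, and 1.70 times in CTEL_peak_39209 (scaffold 709, 83644 to 85477), from 870.2 and 893 to 1514 and 1490.3. CTEL_peak_19248 (scaffold 282, 217515 to 218495) rose 1.74 times, from 606 and 850.5 to 1218 and 1312, and CTEL_peak_12597 (scaffold 20, 403586 to 404641) 1.77 times, from 1287 and 1521 to 2450.3 and 2513. In CTEL_peak_19248 the higher 64-cell library lay above both gastrula libraries, 783 and 833. The stage 8 libraries were above the 64-cell libraries in all of these peaks.

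Close replicates were a further ground for naming a peak, among those whose libraries did not overlap at any step. After CTEL_peak_18955, they were CTEL_peak_23533 (scaffold 343, 82627 to 84274) with 1162 and 1178 at the 64-cell stage and 3167 and 3126 at stage 8, CTEL_peak_33017 (scaffold 530, 23582 to 25407) with 1079.9 and 1129.8, then 2022 and 2118, CTEL_peak_6063, and CTEL_peak_1495 (scaffold 106, 282713 to 283754) with 757 and 713, then 1831 and 1698. Their timing differed: CTEL_peak_23533 had its largest ratio, 1.47, at the batch step (1775 to 1803 at stage 4tt, 2573 to 2692 at stage 5). CTEL_peak_33017 had its largest, 1.3, at the first step and CTEL_peak_1495 its largest, 1.47, at the last.

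Peaks near the bounds show what the rule let in and kept out. The weakest of the 69 was CTEL_peak_42975 (scaffold 843, 9751 to 10252), with 41.9 and 58.4 at the 64-cell stage and 147 and 120.5 at stage 8, followed by CTEL_peak_25502 (scaffold 38, 8211 to 9358), with 65.2 and 62.3, then 137 and 134. CTEL_peak_39718 (scaffold 7260, 197 to 547) met every step but had a stage 8 mean of 92.8 and was the only peak kept out by that minimum alone down to a mean of 50. Close to the lower bound, CTEL_peak_37962 and CTEL_peak_8284 (scaffolds 67 and 159) were kept with a smallest ratio of 1.1, while CTEL_peak_40637 and CTEL_peak_43435 (scaffolds 76 and 86) fell just short of it. CTEL_peak_43435 went from 3001 and 2754 to 7362 and 7041 with libraries that did not overlap at any step. Close to the upper bound, CTEL_peak_286 and CTEL_peak_15770 had a largest ratio of 1.49, and CTEL_peak_26428 and CTEL_peak_14669 (scaffolds 395 and 224) reached 1.5 and were left out. The ratios just inside and just outside a step bound thus differed by less than the replicates of these peaks.

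The 69 peaks were wider than most. Their median width was 1123 bp, against 810 bp for all consensus peaks, 891 bp for those with a stage 8 mean of 100 or more, 863 bp for the falling peaks and 1114.5 bp for the peaks that changed little. The share over 2000 bp was 7.25% (5 peaks), close to the 6.47% of all peaks. The second widest, CTEL_peak_17146 (scaffold 253, 221378 to 223825), had 1231 and 1612 at the 64-cell stage and 2555 and 2761 at stage 8. The narrowest were CTEL_peak_1010 (scaffold 103, 42298 to 42464), 167 bp, with 146 and 147, then 304 and 289.7, and CTEL_peak_25941 (scaffold 387, 34033 to 34253), 221 bp, with 109 and 153, then 384 and 328.

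The depth behind these values differed between peaks. The reads recovered from the normalised values ranged from 18 to 15795 per peak and library over the 69, and 5 peaks had under 50 reads in a library. The median peak of the 69 had 225 and 267 reads in 64-cell embryos, 511 and 431 in gastrulae, 672 and 578 in stage 4tt larvae, 1158 and 1143 in stage 5 larvae, and 2114 and 1379 in stage 8 larvae. Depth rose along with stage, so the early values are the less precise ones, and the part of depth in the rises was not tested.

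Most of the 69 peaks lay on scaffolds of their own, and positions on different scaffolds give no distance between peaks. They fell on 67 of the 5551 scaffolds with a consensus peak. None had another of the 69 within 5 kb or 10 kb, which is near the share over all peaks (0.323% and 0.659% had one of the 69 within these distances). Scaffold 36 held CTEL_peak_24440 (256115 to 256391) and CTEL_peak_24484 (562166 to 562549), 305774 bp apart, and scaffold 96 held CTEL_peak_45695 and CTEL_peak_45707, 58398 bp apart. CTEL_peak_24440 had 118 and 95.0 in 64-cell embryos, then 147 and 135, 179.9 and 167, 216 and 182, and 266 and 293 in stage 8 larvae. CTEL_peak_24484 had 146 and 120.2, then 140.0 and 191, 190.0 and 178, 228 and 257, and 229 and 310.2. The libraries of the first never overlapped from stage to stage and those of the second were separated at 1 step only. Gene names, genome sequence and motifs at the peaks were not analysed here.

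The nearest other consensus peak gives a reading at sites that the rule did not choose. It was found for 68 of the 69, the other being alone on its scaffold, at a median distance of 1089.5 bp (27 to 11238), against 1540 bp over all consensus peaks and 1544 bp and 2491.5 bp for the falling and the little-changing peaks. Of these neighbours 49 of 68, or 72.1%, were higher at stage 8 than at the 64-cell stage, against 60.3% of the neighbours of all peaks, 59.8% of those of peaks that changed little and 42.2% of those of falling peaks. The median neighbour had a ratio of 1.54 over this span, against 1.16, 1.17 and 0.890 in the same order. Neighbours within 1000 bp (32) and farther away (36) were higher at stage 8 in 75% and 69.4%, against 59.2% and 60.8% of the neighbours of all peaks at these distances.

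By step the neighbours of the 69 differed most from other neighbours at the beginning. They were higher in the gastrula than at the 64-cell stage in 57.4%, against 43.4% of the neighbours of all peaks, and at the next step in 66.2% against 56.4%. At the batch step they were higher in 57.4% against 61.2%, and at the last step in 57.4% against 50.53%. A rise at every step was seen in 5 of the 68 neighbours, or 7.35%, against 2.15% of the neighbours of all peaks and in 0 of 64 neighbours of falling peaks. None of these shares was tested.

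The 5 neighbours that rose at every step were named after their values were seen. The neighbour of CTEL_peak_15120, 1561 bp away on scaffold 23 from 384415 to 385897, had 1786 and 1834 in 64-cell embryos, then 2176 and 2162, 3616 and 3409.8, 4889 and 4572, and 8040.2 and 7301 in stage 8 larvae, a rise of 4.24 times. That of CTEL_peak_40995, 627 bp away (74512 to 76687), had 1642 and 1535, then 1775 and 1602, 2287 and 2123, 2986 and 2959, and 4929 and 4692. The largest gain in signal of both was at the last step, where the chosen peaks beside them had ratios of 1.19 and 1.16. The neighbour of CTEL_peak_41817, 1290 bp away (259165 to 260025), rose 1.86 times from 1709 and 2163 to 3806 and 3410.0, and its second stage 8 library lay below the first stage 5 library, 3536. That of CTEL_peak_35275, 3765 bp away on scaffold 592 (67358 to 72348), went from 3183 and 3047 to 9512 and 9021, with stage 5 and stage 8 libraries that overlapped, and that of CTEL_peak_44212, 1700 bp away on scaffold 897 (8061 to 8424), from 58.1 and 50.6 to 187 and 178. The gastrula values of the latter were 83.6 and 41.3, so that the second gastrula library lay below both 64-cell libraries and the rise at the first step rests on the mean. In 3 of the 5 pairs the chosen peak was also among the 8 that met the rule in each replicate.

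The peaks that the authors called in each library separately come from the same reads and are a description. A called peak overlapped 43.5% and 49.3% of the 69 in 64-cell embryos, 71.0% and 73.9% in gastrulae, 82.6% and 84.1% in stage 4tt larvae, 97.1% and 92.8% in stage 5 larvae, and 97.1% and 95.7% in stage 8 larvae. The shares of all consensus peaks were 46.6% and 51.7%, then 58.9% and 59.0%, 63.9% and 62.5%, 76.3% and 76.7%, and 83.5% and 81.4% in the same order. The share of the 69 was thus near that of all peaks in 64-cell embryos and above it in the later libraries. The falling peaks were covered in 83.3% and 95.5% in 64-cell embryos and in 60.6% and 54.5% in stage 8 larvae, and those that changed little in 85.1% and 87.3%, then 96.3% and 94.8%. None of these shares was tested. Of the 69, 34 were covered by no called peak in either 64-cell library, and 65 were covered in both stage 8 libraries. These joint counts were not made over all consensus peaks, so they do not set the 69 apart from other peaks. A consensus peak without a called peak still had signal there: the lowest 64-cell mean of the 69 was 50.2.

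**Figure D5:**
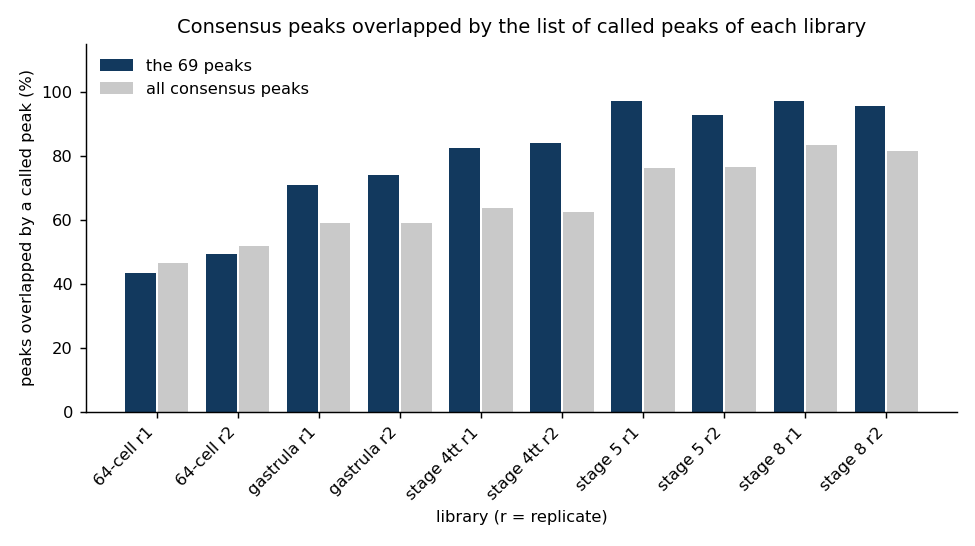
Percentage of consensus peaks overlapped by a called peak (vertical axis) in each of the 10 libraries, for the 69 peaks (dark) and all 46409 (grey). The dark bars go from 43.5% and 49.3% at the 64-cell stage, below the grey ones, to 97.1% and 95.7% at stage 8, above them.

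Of the 69, 29 were covered in all 10 libraries, or 42.0%, against 31.5% of all consensus peaks, 47.0% of the falling peaks and 81.3% of those that changed little. In these 29 the fold enrichment over local background that the peak caller gave could be followed through all stages. Its stage mean was higher than at the stage before in 27, 25, 14 and 19 of the 29 at the 4 steps (93.1%, 86.2%, 48.3% and 65.5%), against 81.4%, 68.9%, 21.0% and 60.6% of the 14608 consensus peaks covered in all libraries. It rose at all 4 steps in 7 of 29 (3.18% of the 14608), and stood higher at stage 8 than at the 64-cell stage in 27 of 29 (70.2%). On this scale the batch step was a fall for most of the 14608 peaks, and the whole lists moved with it. The median enrichment of a whole list was 3.11 and 3.13 in the stage 4tt libraries but 2.36 and 2.34 in those of stage 5. The deposited signal was higher at that step in 61.6% of the consensus peaks for which a ratio could be taken. Its direction was not counted over the 14608 alone, so the 2 scales were not compared on the same peaks.

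Single peaks followed either course. CTEL_peak_1495 had an enrichment of 2.62 and 2.78 in 64-cell embryos, 5.21 and 4.19 in gastrulae, and then 5.73 and 6.03, 6.52 and 6.11, and 7.66 and 6.70 in the larvae. CTEL_peak_6063 had 2.69 and 2.31, then 3.96 and 3.20, 5.11 and 4.77, 5.72 and 5.84, and 6.32 and 6.88. The stage mean of both was higher at every step, like the signal. In CTEL_peak_12597 it went from 5.68 and 4.73 to 10.5 and 8.71 at stage 4tt and then to 8.49 and 7.97 at stage 8. In CTEL_peak_41817 it was 2.33 and 2.16, then 2.23 and 2.27, 3.18 and 3.28, 2.87 and 3.08, and 2.65 and 2.70, so that the strongest of the 69 by summed signal was one of modest enrichment. CTEL_peak_45113, with the largest rise in signal, was not covered at the 64-cell stage and had 3.27 and 2.04 in the gastrula and 1.84 and 1.78 at stage 8.

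Within the 29 the point of highest signal moved from library to library by a median of 247 bp, against 219 bp over the 14608 peaks, and it stayed within 100 bp in 2 of the 29 (6.90%, against 24.1%). One of these was CTEL_peak_1495, with a spread of 89 bp. In CTEL_peak_41817 the spread was 1443 bp. This point can move farther in a wider peak, and the 29 and the 14608 were not matched for width. The difference between them is therefore not read as a trait of the rising peaks. Of the 69, 14 held a single called peak in every library and 24 held 2 or more in a library. The same counts were not made over all consensus peaks, so they do not set the 69 apart either. CTEL_peak_41817 held 3 called peaks in 64-cell replicate 2 and 1 in each other library. Whether such consensus peaks join several sites was not tested.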

How the data were processed

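ATAC-seq was done on 10 libraries, 2 per stage. Per the methods of the study, the authors mapped trimmed read pairs, removed duplicates, shifted reads for the transposase and called peaks per library with MACS2 2.2.7.1. The deposited lists give per called peak a fold enrichment (a ratio), −log10 p- and q-values, a score and other position columns. The deposited table holds, for 46409 consensus peaks, normalised signal made by the authors with DiffBind and DESeq2. The study annotated genes on the Ensembl Metazoa assembly of the species without saying to which build these reads were mapped, and positions are those of the deposited files, with starts counted from 1.

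The peaks and lists described were chosen with earlier results of these data known. The single peaks named were the 5 with the highest stage 8 mean, the 5 with the largest and the 5 with the smallest overall ratio, the 5 with the closest replicates among those whose libraries overlapped at no step, the 2 widest and 2 narrowest, those on the scaffold with the most (the lower-numbered of 2 that held 2 each), and those nearest each bound; the exceptions are marked as chosen after their values were seen. Values were tested as log2(value + 1) with limma 3.58.1 in R 4.3.3, with trend and robust moderation, two-sided, all 10 libraries in 1 fit without covariates. The study calls the 2 libraries of a stage biological replicates, and the labels do not say whether they came from separate broods, so p-values measure the spread between these libraries. Reads were recovered from the smooth step of the values (99.99% of values up to 50 reads whole within 0.1 reads, 71.8% of all values above 0). EdgeR 4.0.16 and DESeq2 1.42.0 were run on these reads as alternatives chosen after seeing the data. Overlaps of at least 1 base were counted between consensus and called peaks. The fit and the rule were tested on simulated data.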

Additional observations from a re-analysis of the deposited data

How the results depend on the processing

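The number of peaks that met the rule was 69, and 44 after TMM scaling (14 of them among the 69), 451 with a lower bound of 1 and 142 with an upper bound of 2. After quantile normalisation it was 77, of which 18 were among the 69, so that a like number does not mean the same peaks. It ran from 59 to 84 when single libraries were left out, and from 41 (without gastrula replicate 2, where 76 peaks met the rule) to 63 of the 69 were then still among them, with 45 each without gastrula replicate 1, stage 4tt replicate 2 and stage 5 replicate 1; with replicate 1 or replicate 2 of every stage left out it was 73 and 69, with 22 and 26 of the 69. The number of the 69 called higher changed by more than 1.5 times at the first step after TMM (54, against 33), at the second without trend and robust moderation (14, against 26), at the third after TMM (2, against 35) and at the last with the libraries of the 2 stages alone (49, against 28). With single libraries left out these counts ran from 26 to 36, 12 to 29, 8 to 45 and 13 to 36, and from the 64-cell embryo to stage 4tt from 53 to 65. Each fit without a library left 1 library in its stage, and the number called over all peaks changed as well. After TMM, 15115 of all 46409 peaks were called higher at the first step and 14166 at the third. Without trend and robust moderation 8636 of all peaks were called higher at the second step, against 10092 in the main fit. With the libraries of the 2 stages alone 11014 were at the last step, against 7107. On recovered reads edgeR called 29, 26, 40 and 37 of the 69, against 12034, 10179, 19080 and 8612 of all 46409 peaks. DESeq2 called 28, 26, 35 and 33, against 11506, 9161, 17657 and 7449 of 46019 peaks. From the 64-cell embryo to stage 4tt they called 61 and 58 of the 69, against 12083 and 11616 of all peaks. With the replicate number as a block (replicate block) the counts were 34, 27, 33, 28 and 62, against 12633, 10011, 18399, 6993 and 12482 of all peaks. The block moved no count of the 69 by over 1.5 times. Same-numbered libraries of 2 stages deviated together with correlations between -0.053 and 0.031, so the numbers were not taken to pair them. The 29 peaks covered in all libraries became 29 with 50% of the called peak inside and 23 at a −log10 q of 5 or more, and the count of 0 with another of the 69 nearby stayed 0 at 10 kb. In all, 100 values obtained under these alternatives were within 1.5 times of those reported and 16 were not. Depth limits the early stages most, where 5 of the 69 had under 50 reads in a library.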
